A study of Homo sapiens with 4 samples.

Results

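The genes described here control or report the cellular response to low oxygen: HIF1A and EPAS1, the oxygen-regulated alpha subunits of the hypoxia-inducible factors (HIF), EGLN1 and EGLN3, the prolyl hydroxylases that mark those subunits, VHL, the ubiquitin ligase subunit that recognises the mark, and 5 genes that HIF switches on, CA9, ADM, VEGFA, NDRG1 and BNIP3. They were chosen by name, and where a gene had several probe sets, the one with the highest average signal on the 4 arrays stood for it. Of the 10 genes, 8 had a probe set that carries their symbol alone, out of 22395 genes with such a probe set. BNIP3 shared its probe set with the pseudogene BNIP3P1, so that signal is given apart and left out of the counts. No probe set was named for CA9, so it has no signal here and enters only the promoter search.

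Huh7, a human hepatocellular carcinoma cell line, was transfected with pcFLAG-hSTYK1, a plasmid that carries human STYK1 (2 arrays, called STYK1 here), or with pcFLAG (2 arrays, called control), and total RNA was measured on whole-transcript arrays. STYK1 encodes a receptor-like kinase, and the comparison asks which transcripts differ when it is overexpressed. The labels give neither the time after transfection, nor the oxygen level of the cultures, nor whether a stable line or a pool of transfected cells was used. They also do not say whether the replicates were independent cultures; the p-values therefore reflect array-to-array spread that could be technical alone.

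In oxygenated cells the EGLN enzymes hydroxylate the HIF alpha subunits, VHL then captures them, and they are degraded. When oxygen is scarce the subunits persist, pair with ARNT and bind hypoxia response elements near genes of glucose use, vessel growth, acid balance and mitochondrial turnover. HIF1A is thus controlled largely through its protein, which these arrays do not measure, whereas EGLN3, CA9, ADM, VEGFA, NDRG1 and BNIP3 are widely used transcript readouts of HIF activity. In liver, EPAS1 and HIF1A have partly different targets, among them erythropoietin and enzymes of glycolysis.

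Values are the log2 signals that the authors deposited, so a difference of 1 is a 2-fold change. Array medians lay between 0.615 and 0.629. A signal was taken as background under a floor of 0.726 to 0.780 per array, below which lay 95% of 432 probe sets of olfactory receptors, genes with no known role in liver cells. The transfected gene read 7.40 and 7.86 in the STYK1 arrays and 0.26 and 0.61 in the control arrays. The measured difference was 7.19 (limma, adjusted p = 0.0373), and since both control signals lay under the floor, the increase of STYK1 is given as at least 118-fold. The direction was kept and the call was not with signals set to the floor (adjusted p = 0.138), with the replicate number as a block (0.0637) and with any 1 array left out (0.347 to 0.724). Liver cell markers matched the label, with 9 of 9 measured markers above the floor on every array, among them ALB and AFP. All 4 measured endothelial markers were under the floor on every array. Of the 4 fibroblast markers none was above the floor on all 4 arrays, and of the 4 immune markers LYZ and CD14 were.

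No hypoxia gene passed the test for a difference between STYK1 and control arrays. The 8 genes with a probe set of their own differed by −0.11 to 0.16 log2 units, 4 higher and 4 lower in the STYK1 arrays, and 0 of 8 passed the test (limma, adjusted p from 0.979 to 1.00) or reached an unadjusted p under 0.05. Over all 53617 probe sets, 0.00187% passed, which is STYK1 alone, and 4.64% had an unadjusted p under 0.05. STYK1 passed narrowly (limma, adjusted p = 0.0373) with a difference of 7.19. Much smaller changes could therefore fail the test, and not passing does not show that a gene was unchanged. The median size of the difference was 0.08 over the 8 genes, against 0.09 over all probe sets and 0.11 over the 15564 probe sets above the floor on all arrays. The groups did not overlap for 4 of the 8 genes, where 32.8% of all probe sets did the same. Of the 4, HIF1A, EGLN1 and ADM were higher in the STYK1 arrays, against 17.4% of all probe sets, and EGLN3 was lower, against 15.4%. With 8 genes these counts are read as no result about them.

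**Figure D1:**
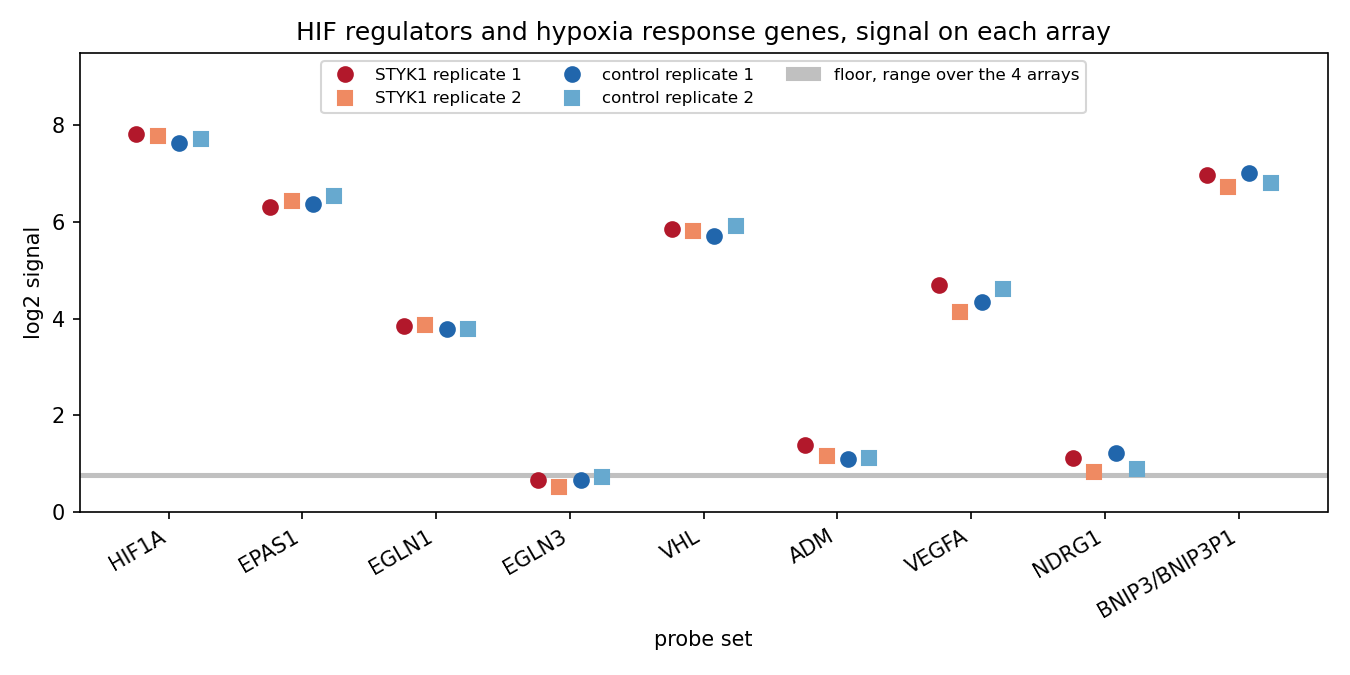
Log2 signal (vertical axis) of each hypoxia gene's probe set (horizontal axis) on the 2 STYK1 and 2 control arrays, with the range of the floor as a grey band. The 4 points of each gene lie close together: EGLN3 lies under the floor, ADM and NDRG1 lie just above it, and VEGFA spreads most, from 4.14 to 4.70.

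HIF1A, the broadly expressed HIF alpha subunit, was well above the floor on every array. It read 7.83 and 7.78 in the STYK1 arrays, against 7.64 and 7.71 in the control arrays. The STYK1 arrays were both higher, and the gap was small: the difference was 0.12 (standard error 0.09; limma, adjusted p = 0.979). The 95% interval of the ratio of STYK1 over control ran from 0.930 to 1.28. A second HIF1A probe set read 0.67 and 0.67 in the STYK1 arrays and 0.49 and 0.64 in the control arrays, under the floor on all 4.

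EPAS1, which encodes HIF-2 alpha, was also clearly detected. Its signals were 6.31 and 6.44 in the STYK1 arrays, against 6.38 and 6.53 in the control arrays. The groups overlapped, with a difference of −0.08 (standard error 0.11; limma, adjusted p = 0.990), and the interval of the ratio ran from 0.779 to 1.15. The difference was −0.005 without control replicate 2 and −0.01 without STYK1 replicate 1, against −0.16 without control replicate 1 and −0.15 without STYK1 replicate 2. In both groups replicate 2 was above replicate 1, by 0.13 in the STYK1 arrays and 0.15 in the control arrays, so the gap between replicates was larger than that between the groups.

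Among the oxygen sensors, EGLN1 was above the floor on all 4 arrays and EGLN3 was under it. A signal under the floor does not show that the EGLN3 transcript was absent. EGLN1 (PHD2), the main HIF prolyl hydroxylase in most cells, read 3.85 and 3.87 in the STYK1 arrays, against 3.79 and 3.79 in the control arrays. Its replicates lay closest together of the 8 genes and the groups did not overlap, yet the difference of 0.07 had a standard error of 0.08 after limma's moderation of the spread (adjusted p = 0.985). The interval of its ratio ran from 0.905 to 1.23. EGLN3 (PHD3), a hydroxylase that is itself a HIF target, read 0.65 and 0.52 in the STYK1 arrays and 0.66 and 0.73 in the control arrays. All 4 values lay under the floor, so no fold is given, although the STYK1 arrays were both lower. VHL read 5.85 and 5.81 in the STYK1 arrays, against 5.71 and 5.92 in the control arrays. The STYK1 values lay between the control values, and the difference was 0.01 (standard error 0.11; limma, adjusted p = 1.00; interval of the ratio 0.829 to 1.23). It was −0.007 without STYK1 replicate 1 and −0.09 without control replicate 1.

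Neither of the secreted HIF targets passed the test. ADM, the vasodilator peptide adrenomedullin, read 1.39 and 1.15 in the STYK1 arrays, against 1.10 and 1.11 in the control arrays. It had the largest difference of the 8 genes, 0.16 (standard error 0.11; limma, adjusted p = 0.979; interval of the ratio 0.913 to 1.38), and STYK1 replicate 1 supplied most of it. Without that array the difference was 0.05.

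VEGFA, the growth factor for blood vessels, spread more than any other of these genes. It read 4.70 and 4.14 in the STYK1 arrays, against 4.34 and 4.62 in the control arrays. The highest and the lowest value both came from STYK1 arrays, so the groups overlapped, with a difference of −0.06 (standard error 0.22; limma, adjusted p = 0.999). The interval of its ratio was the widest, from 0.641 to 1.44. The direction turned with the array left out: the difference was 0.22 without STYK1 replicate 2 and 0.08 without control replicate 2.

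The arrays that were high for VEGFA were also those high, on average, for target genes of ATF4. ATF4 is the transcription factor of the amino acid and unfolded protein stress responses, and VEGFA is itself a known target of it. VEGFA deviated from its 4-array mean by 0.25 in STYK1 replicate 1, −0.31 in STYK1 replicate 2, −0.11 in control replicate 1 and 0.17 in control replicate 2. In the same order, the mean over the listed ATF4 target genes (11 of 11 measured, all above the floor) deviated by 0.36, −0.24, −0.27 and 0.15. The highest array of both was STYK1 replicate 1, followed by control replicate 2, while the lowest array differed. The summed linear signal of the ATF4 list was 1178 and 834 in the STYK1 arrays and 782 and 1027 in the control arrays. Unlike VEGFA, PPP1R15A of that list was high in both STYK1 arrays, with deviations of 0.45, 0.25, −0.55 and −0.15 in the same array order. Its difference of 0.70 did not pass (limma, adjusted p = 0.979), and it was picked after its values were seen. ADM was also highest in STYK1 replicate 1, while its other 3 arrays lay close together, with deviations of 0.20, −0.03, −0.08 and −0.08 in that order. The ATF4 list was included as a stress list that may move with 1 array, so its match with VEGFA over 4 arrays is a description only. The part of the stress genes in the VEGFA and ADM signals was not tested.

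**Figure D2:**
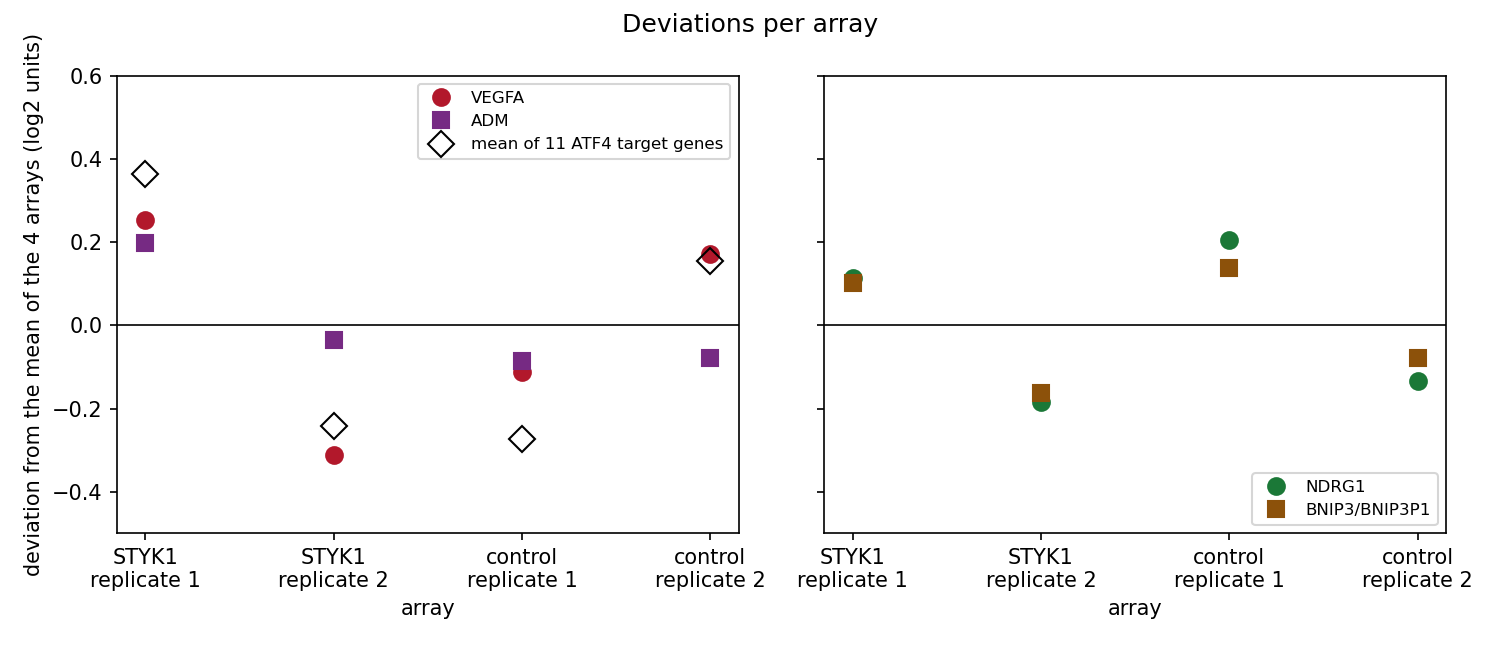
Deviation of each array from the gene's mean over the 4 arrays (vertical axis, log2 units), by array (horizontal axis); the left panel shows VEGFA, ADM and the mean of 11 ATF4 target genes, and the right panel NDRG1 and the probe set shared by BNIP3 and BNIP3P1. VEGFA and the ATF4 mean lie above 0 in STYK1 replicate 1 and control replicate 2, and NDRG1 and BNIP3/BNIP3P1 lie above 0 in replicate 1 of both groups.

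NDRG1 and the probe set shared by BNIP3 were both lower in replicate 2 than in replicate 1, in either group. NDRG1, a hypoxia- and stress-induced protein first known for its link to differentiation, read 1.12 and 0.83 in the STYK1 arrays, against 1.22 and 0.88 in the control arrays. Replicate 2 was lower than replicate 1 by 0.30 in the STYK1 arrays and by 0.34 in the control arrays, and the difference between the groups was −0.07 (standard error 0.17; limma, adjusted p = 0.996; interval of the ratio 0.700 to 1.29). It turned to 0.08 without STYK1 replicate 2 and to 0.10 without control replicate 1. The probe set listed for both BNIP3, a mitochondrial receptor for mitophagy, and BNIP3P1 read 6.98 and 6.72 in the STYK1 arrays, against 7.02 and 6.80 in the control arrays. In replicate 2 it was lower by 0.26 in the STYK1 arrays and 0.22 in the control arrays, and the groups differed by −0.06 (standard error 0.14; limma, adjusted p = 0.996). That difference was 0.07 without STYK1 replicate 2 and 0.05 without control replicate 1. Replicate 2 lay on the same side of replicate 1 in both groups for 3 of the 8 genes, against 48.2% of all probe sets: it was lower for NDRG1 and higher for EPAS1 and EGLN1. The labels do not say what, if anything, the replicate numbers share.

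**Figure D3:**
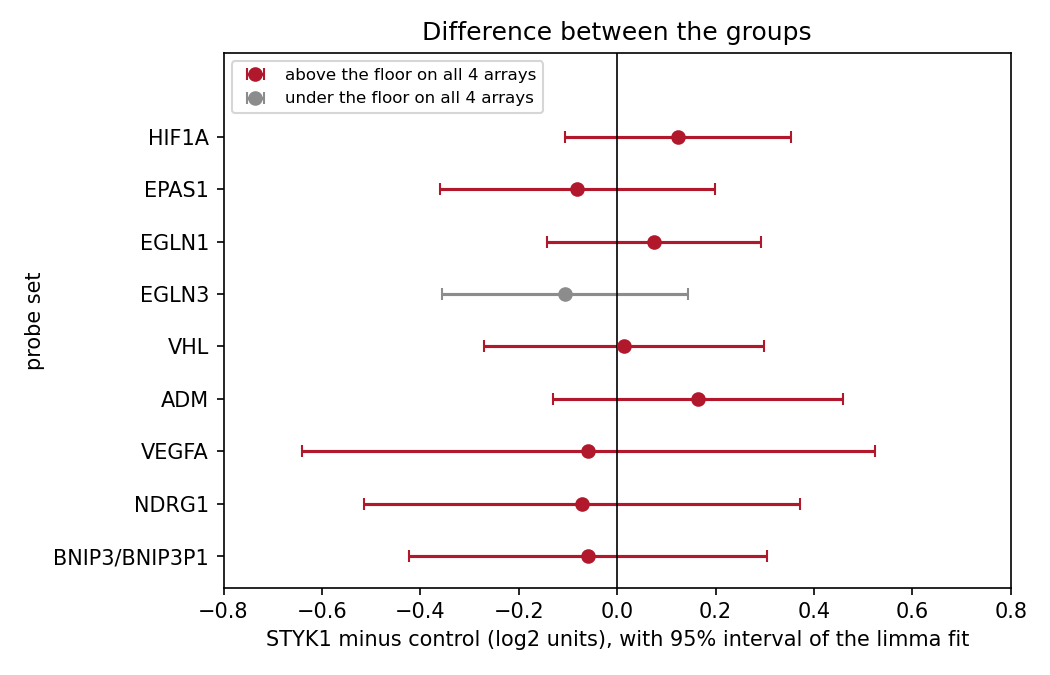
Difference between the STYK1 and control arrays (horizontal axis, log2 units) for each hypoxia gene's probe set (vertical axis), with the 95% interval of the limma fit. Every interval spans 0, the widest being that of VEGFA, and EGLN3, under the floor on all 4 arrays, is drawn in grey.

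HIF binds DNA at a short core, ACGTG or GCGTG, and promoter sequence from RefSeq (build GRCh38.p14) was searched for it on both strands in the 250 bases before each transcription start. A promoter was found for 7 of the 10 genes, in 8 windows since HIF1A has 2. The core was present in 6 of the 8 windows, those of EPAS1, EGLN1, CA9, ADM and BNIP3 and 1 of HIF1A, and was absent from that of EGLN3. Of 35116 promoter windows in the table, 18.5% held ACGTG, 32.2% held GCGTG and 43.2% held at least 1 of them. A match is a string of letters and not a measured site. The stretches around the matches of EGLN1, ADM and BNIP3 are printed because these are a sensor and 2 targets with a signal above the floor on all arrays. They run 5′ to 3′ on the gene's strand, end at or before the transcription start, and show every match, on either strand, in capitals.
EGLN1, chr1:231422288-231422325, minus strand: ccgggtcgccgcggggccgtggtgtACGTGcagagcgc
ADM, chr11:10304947-10305001, plus strand: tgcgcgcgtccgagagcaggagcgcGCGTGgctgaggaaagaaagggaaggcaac
BNIP3, chr10:131981998-131982091, minus strand: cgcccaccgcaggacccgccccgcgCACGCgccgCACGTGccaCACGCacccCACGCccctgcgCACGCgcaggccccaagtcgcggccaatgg
EGLN1 held 1 match, 13 bases before the start, ADM held 1, 101 bases before the start, and BNIP3 held 6, of which the pair on opposite strands at CACGTG overlap. The signals of EGLN1, ADM and the shared BNIP3 probe set differed between the groups by 0.07, 0.16 and −0.06, and none of the 3 passed the test.

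No other listed gene of the pathway passed the test either. The 5 further lists named 86 genes, of which 79 had a probe set and 59 exceeded the floor on all arrays. By limma 0 of 79 passed, and 3 (STC2, FAM162A and RAMP2) had an unadjusted p under 0.05. Over all probe sets, 4.64% had an unadjusted p under 0.05. As with the hypoxia genes, not passing does not show that a gene was unchanged. Of the 79, 43 were higher and 36 lower in the STYK1 arrays, with a median difference of 0.003, against 0.006 over all probe sets. The groups did not overlap for 26 genes, or 32.9%, close to the 32.8% of all probe sets.

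Partners and degradation factors of HIF had 16 of 19 genes measured, 8 higher and 8 lower, with a median difference of 0.002 and 0 past the test. SIAH1, a ubiquitin ligase that acts on the EGLN enzymes, read 2.23 and 2.06 in the STYK1 arrays, against 1.92 and 1.83 in the control arrays. Its groups did not overlap, and the difference of 0.27 did not pass (limma, adjusted p = 0.979). CREBBP, a coactivator that binds HIF alpha subunits, differed by 0.16, and OS9, a lectin of protein quality control reported to bind HIF1A, by −0.08. ARNT, the obligate partner, and HIF1AN, the asparaginyl hydroxylase that blocks coactivator binding, differed by −0.04 and 0.05, and both were picked after their values were seen.

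HIF target genes outside glycolysis had 28 of 30 genes measured, 19 higher and 9 lower, with a median of 0.05 and 0 past the test. STC2, a secreted glycoprotein that is also induced by ATF4, read 6.50 and 6.30 in the STYK1 arrays, against 6.15 and 5.99 in the control arrays. Both STYK1 values were above both control values, with a difference of 0.33 (standard error 0.12), but STC2 missed the threshold (limma, adjusted p = 0.979). FAM162A, a mitochondrial protein linked to hypoxic cell death, lay near the floor. It read 1.37 and 1.43 in the STYK1 arrays and 1.06 and 1.21 in the control arrays, a difference of 0.27. DDIT4, an inhibitor of mTORC1 signalling that both HIF and ATF4 induce, read 5.70 and 4.93 in the STYK1 arrays, against 5.39 and 5.80 in the control arrays. Its groups overlapped, with a difference of −0.28 and a standard error of 0.29, and its lowest array, STYK1 replicate 2, was also that of VEGFA. BNIP3L, the close relative of BNIP3, read 4.56 and 4.50 in the STYK1 arrays and 4.80 and 4.70 in the control arrays, a difference of −0.22 that did not pass (limma, adjusted p = 0.979), and was picked after its values were seen.

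Target genes of glucose uptake and glycolysis had 17 of 18 genes measured, 9 higher and 8 lower, with a median of 0.003 and 0 past the test. PDK1, the kinase that keeps pyruvate out of the mitochondrion, read 3.56 and 3.22 in the STYK1 arrays, against 3.11 and 3.05 in the control arrays. That difference of 0.31 was the largest in size among the listed glycolytic genes above the floor (standard error 0.14; limma, adjusted p = 0.979). The enolase ENO1 differed by 0.15 and the isomerase TPI1 by −0.13. TPI1 lay near the floor, at 0.91 and 1.02 in the STYK1 arrays and 1.03 and 1.16 in the control arrays. ENO2, which had the smallest p of this list, read 0.65 and 0.78 in the STYK1 arrays and 0.46 and 0.53 in the control arrays, under the floor on all 4.

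Ligands and receptors of the VEGF and adrenomedullin systems had 13 of 14 genes measured, 5 higher and 8 lower, with a median of −0.05 and 0 past the test. Only 6 of the 13 were above the floor on all arrays, and the VEGF receptors FLT1 and KDR, picked after their values were seen, were under it on every array. RAMP1, a receptor partner of the calcitonin family, differed by −0.17, the ligand VEGFB by −0.14 and the adrenomedullin relative ADM2 by −0.11. RAMP1, VEGFB and ADM2 all lay near the floor, and the groups of ADM2 overlapped. RAMP2, which turns the receptor CALCRL into an adrenomedullin receptor, read 0.58 and 0.58 in the STYK1 arrays, under the floor, and 0.78 and 0.86 in the control arrays, just above it. Its adjusted p was 0.979 (limma). Among 5 relatives of NDRG1 and CA9, all measured, 0 passed. NDRG3 read 4.32 and 4.29 in the STYK1 arrays, against 4.45 and 4.56 in the control arrays. Its difference was −0.20 without overlap (limma, adjusted p = 0.979). NDRG4 and NDRG2, both near the floor, differed by −0.06 and 0.003.

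**Figure D4:**
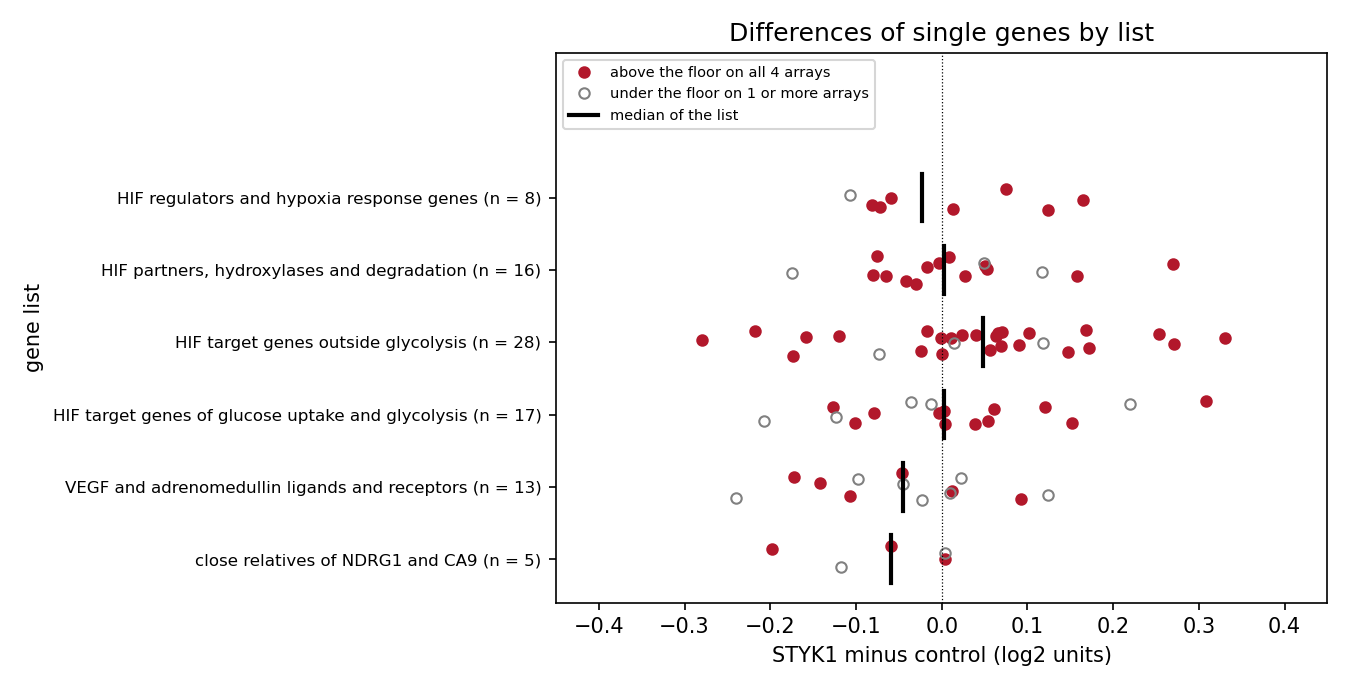
Difference between the STYK1 and control arrays (horizontal axis, log2 units) for each measured gene of the hypoxia genes and 5 pathway lists (vertical axis); filled points are genes above the floor on all 4 arrays, open points are not, and black bars are list medians. The points of each list lie on both sides of 0, and medians run from −0.06 to 0.05.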

How the data were processed

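Per the labels' protocols, RNA was amplified and biotin-labelled with Affymetrix kits for whole-transcript arrays. A table of log2 signals was deposited, 1 column per array, and the base was inferred from its values. Per the submitters' processing notes the Transcriptome Analysis Console was used, and its version, how it summarized and normalized the probes and the genome build were not given in the sources used here. Neither detection calls nor scan dates are in the table, so no batch could be examined. Background correction that shrinks dim signals would lower differences of dim genes such as ADM and NDRG1. Levels of different probe sets are not comparable, so differences between the groups were taken within each probe set. The floor and the summed signal of the ATF4 list draw on many probe sets and do not rank genes by transcript level.

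Probe sets were named from the platform annotation: 23871 of 53617 had 1 symbol, 1842 several and 27904 none here, and 90 symbols were updated through Entrez ID in RefSeq. Groups were compared with limma 3.58.1 in R 4.3.3 (lmFit with group as the only term and eBayes with no trend; two-sided). P-values were adjusted by Benjamini-Hochberg across the 53617 probe sets and called under 0.05. Each probe set had 2 residual degrees of freedom and a prior of 2.71. No array was a copy of another, with equal values at 170 to 242 probe sets per pair. The fit was tested on simulated data, with shifts larger than any difference of the hypoxia genes. The shifted probe sets were brighter than those of ADM, NDRG1 and EGLN3. Recovery of shifts as small as those of the hypoxia genes was not examined. The number of arrays limits the precision, with a median standard error of 0.11 over all probe sets.

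The hypoxia genes, the pathway lists, the ATF4 list and the floor were chosen with earlier results of these data known. All of the hypoxia genes that had a probe set are described. From each pathway list the text names any gene that passed, the 3 with the largest difference in size among those above the floor on all arrays, and the one with the smallest p. Alternatives were an intensity trend, quantile normalization, a filter at the floor, 1 probe set per named gene, signals set to the floor, the replicate number as a block, each array left out, and the mean of a gene's probe sets.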

Additional observations from a re-analysis of the deposited data

How the results depend on the processing

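Over the 8 genes and 11 alternatives, 80 values could be computed. Of these, 0 passed the adjusted threshold and 72 kept their direction, and HIF1A, EPAS1, EGLN1 and ADM kept it in all of theirs, EPAS1 with a value close to 0 without control replicate 2. The direction turned for EGLN3 with signals set to the floor (0.022) and for VHL with quantile normalization (−0.0076). The other turns came from leaving out 1 array, which gave −0.091 to 0.12 for VHL, −0.34 to 0.22 for VEGFA and −0.24 to 0.10 for NDRG1. With 1 array left out, HIF1A ran from 0.09 to 0.16, EPAS1 from −0.16 to −0.005, EGLN1 from 0.07 to 0.08, EGLN3 from −0.17 to −0.04 and ADM from 0.05 to 0.28. The BNIP3/BNIP3P1 probe set, which is not among the 80 values, also turned, running from −0.19 to 0.072 with 1 array left out. The lone array of a group is then assumed to vary like the other group. With signals set to the floor, 1 of the 8 genes, HIF1A, had an unadjusted p under 0.05, against 0 before. STYK1, the 1 probe set that passed, left 0 passing with signals set to the floor, with the replicate block, and without any single array (lowest 0, highest 0), at adjusted p-values of 0.138, 0.0637 and 0.347 to 0.724. The STYK1 difference was 7.19 with the block and 6.96 to 7.42 without any 1 array. Those fits had 1 residual degree of freedom per probe set, against 2 in the main fit. The causes were not tested. The block rests on numbers that the labels tie to nothing; arrays with the same number had deviations that correlated at −0.04 across probe sets, and the block changed no call on the hypoxia genes. CA9 gave no value under any alternative. EGLN3 lies under the floor and ADM and NDRG1 lie near it, so their differences are limited by signal over background.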
